A study of Sus scrofa with 6 samples.

Results

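The genes described here are those of glycolysis with its transporters, of lactate handling, of the pyruvate dehydrogenase complex (PDH) with its kinases, and of the tricarboxylic acid (TCA) cycle. They were chosen as a list of 42 names, of which 35 were found by gene symbol among the 17950 Ensembl genes of the table, 16 of 21 on the side of glycolysis and 19 of 21 on the side of PDH and the TCA cycle. The glucose transporters *SLC2A1* and *SLC2A3*, the aldolase *ALDOA*, the lactate dehydrogenase *LDHB*, the carrier *SLC16A1*, citrate synthase (*CS*) and *IDH3A* were not found by symbol and were not analysed here, so no glucose transporter of the list has a value.

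Glycolysis splits glucose into pyruvate in the cytosol, and lactate dehydrogenase can turn that pyruvate into lactate, which leaves the cell through monocarboxylate carriers. Alternatively, pyruvate enters the mitochondrion, where PDH makes acetyl-CoA from it for the TCA cycle. In the follicle, the granulosa cells (GCs) that surround the oocyte take up glucose and are known to pass pyruvate and lactate on to the oocyte, which uses little glucose by itself.

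The cells were primary ovarian GCs of Landrace pigs, taken from follicles of prepubertal gilts. Both groups were cultured for 24 h and then exposed to lentiviral particles for 72 h. The virus of the pLVX-*RBP4* group carried porcine retinol binding protein 4 (*RBP4*) with the ZsGreen reporter, and that of the CTRL group carried the reporter alone. RNA of 3 libraries per group was sequenced, and how many gilts stand behind a library is not given in the sources used here. For each gene the deposited table gives 1 FPKM value per group, that is, fragments normalized for transcript length and for the mapped total. The spread between the 3 libraries is therefore not known, each value below has no error, and the groups were compared without a test. Where a pair of values follows a gene, the CTRL group comes first. A gene is called higher or lower by its authors' value alone. Differences were computed as log2(FPKM + 1) of the pLVX-*RBP4* group minus that of the CTRL group, over the 12382 genes whose mean FPKM reached 1, and all 35 genes passed this limit.

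*RBP4* had 1.10 FPKM with the control virus and 92.3 FPKM with pLVX-*RBP4*, which goes with the labels. The granulosa markers found by symbol, 7 of 15, were all above 0, with 5 lower and 2 higher in the pLVX-*RBP4* group (1 to 5 higher over the scalings named below). Of these *CYP11A1*, which starts steroid synthesis, had 673 and 669 FPKM, *GATA4* 59.2 and 57.8 FPKM and the FSH receptor *FSHR* 9.99 and 8.47 FPKM in the CTRL and pLVX-*RBP4* groups. Follistatin (*FST*) was the furthest from 0 of the 7, with 20.5 and 24.7 FPKM (0.26). Markers of stromal and contractile cells were abundant too. Their summed level over 7 of 8 genes was 3228 FPKM with the control virus and 3492 FPKM with pLVX-*RBP4*, and 6 of the 7 were higher in the latter (4 to 6 over the scalings). *TAGLN* alone had 1809 and 1891 FPKM of these sums. By gene, the median difference of the stromal markers was 0.21, further from 0 than the medians of both sides of pyruvate given below. Higher by at least 1.2-fold were 2 of the 7, *LUM* (0.37) and *DCN* (0.32), against 11.0% of all genes. For the counts of markers, 50.2% of all genes were higher and 49.8% lower (30.04% to 65.0% higher over the scalings). *DCN*, *COL3A1*, *ACTA2* and *TAGLN* lie in the highest of the 10 bins of level described below. There, 66.1% of genes were higher and 15.6% higher by at least 1.2-fold. Immune markers, 6 of 8, summed to 48.8 and 55.6 FPKM, most of it from *CD14*, while the leukocyte gene *PTPRC* was at 0.229 and 0.166 FPKM. The 3 that passed the limit on level were all higher with pLVX-*RBP4* under each scaling. These were *CD14* (0.18), *CD68* (0.15) and *LYZ* (0.23), with a median of 0.18. The endothelial markers, 2 of 5, summed to 19.9 and 19.0 FPKM. Of the theca markers, *INSL3* was listed at 0 with the control virus and at 0.292 FPKM with pLVX-*RBP4*, *LHCGR* had 0.209 and 0.0937 FPKM, and *CYP17A1* was not found. Among the red cell markers only *ALAS2* was found, at 0 and 0.0716 FPKM. The part of these cells in the differences below was not tested, and in bulk RNA a change in the number of cells of a type and a change in RNA per cell cannot be told apart.

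Glycolysis transcripts were slightly less abundant in the pLVX-*RBP4* group. Of the 16 genes, 14 were lower and 2 higher, against 49.8% of all genes lower by any amount. The median difference was -0.099 on the log2 scale, with a range from -0.25 for *ENO1* to 0.091 for *LDHA*, and the median of all genes was 0.0014. None of the 16 genes differed by 1.2-fold or more (0.26 on this scale), a size that 8.63% of all genes reached downward and 11.0% upward. The direction of single genes near 0 depends on how the groups are scaled to each other, and 4 other scalings were tried, to a common median, upper quartile, sum, or sum without the highest gene. After rescaling to a common sum, 10 of the 16 were lower, against 34.95% of all genes, and with the highest gene of the table left out of that sum, which moved the median of all genes to -0.11, all 16, against 70.0% of all genes. Relative to the median of all genes, the glycolysis median was -0.10 as deposited, a value that a common factor hardly moves.

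**Figure D1:**
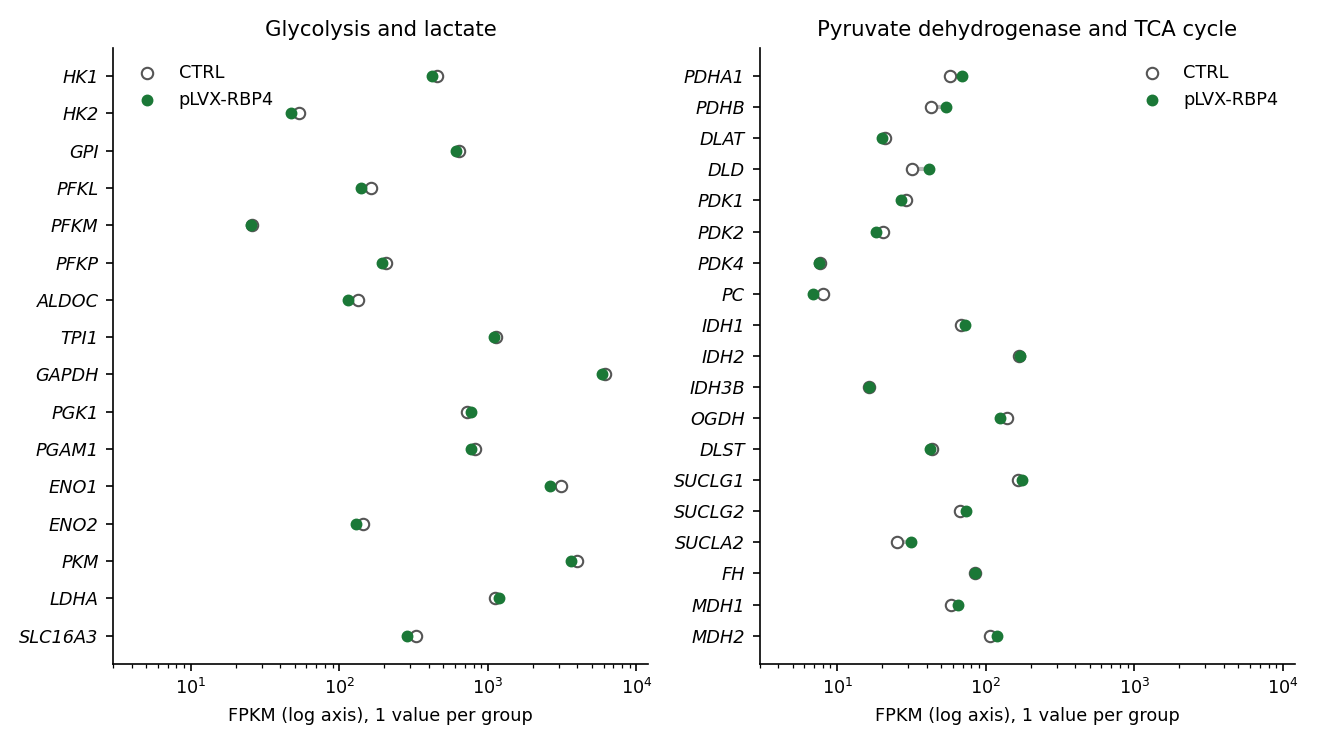
FPKM of each gene (log axis, 1 value per group) in the CTRL group (open circles) and the pLVX-RBP4 group (filled circles), for 16 genes of glycolysis and lactate and 19 genes of pyruvate dehydrogenase and the TCA cycle. Glycolysis genes reach 6162 FPKM (GAPDH), while no gene of the other side exceeds 175 FPKM, and most pairs of circles overlap.

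By level, several glycolysis genes were among the most abundant of the table. *GAPDH*, the dehydrogenase of glyceraldehyde 3-phosphate, ranked 8th of all genes with the control virus and 13th with pLVX-*RBP4*. *PKM*, the pyruvate kinase that makes pyruvate, ranked 15th and 19th, and the enolase *ENO1* ranked 21st and 40th. In both groups 10 of the 16 genes were among the 500 most abundant, and none of the 19 genes of PDH and the TCA cycle was. The median level was 547 FPKM for the glycolysis genes and 43.3 FPKM for those of PDH and the TCA cycle in the CTRL group. Summed over the 16 genes, glycolysis made 19153 FPKM with the control virus and 17879 FPKM with pLVX-*RBP4*, a ratio of 0.933 as deposited. Most of this sum came from *GAPDH*, *PKM* and *ENO1*. Of the summed FPKM of all genes it was 1.70% with the control virus and 1.67% with pLVX-*RBP4*. With the highest gene of the table left out, these shares were 2.62% and 2.26%.

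*GAPDH* was the endogenous control of the RT-qPCR in this study, so its primers are shown here. They are written 5′ to 3′.
GAPDH forward: tgggcatgaaccatgagaag
GAPDH reverse: ccacgatgccgaagttgtc
The primers have 20 and 19 bases. The transcript they amplify had 6162 FPKM with the control virus and 5856 FPKM with pLVX-*RBP4*, a ratio of 0.950 and a difference of -0.073. Across the deposited values and 4 other scalings the difference ran from -0.19 to 0.0063. *GAPDH* and several other glycolytic genes are known for processed copies in mammalian genomes, and how reads were divided between such copies is not known from the table.

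All 8 measured genes of the steps from glucose to triose phosphate were lower as deposited, with a median of -0.099, and 5 of them stayed lower after rescaling to a common sum, where *GPI*, *PFKM* and *TPI1* were above 0. The hexokinases phosphorylate glucose on entry. *HK1* had 454 FPKM with the control virus and 421 FPKM with pLVX-*RBP4* (-0.11), and *HK2*, the inducible form, had 53.1 and 47.3 FPKM (-0.16). *HK1* made 89.5% and 89.9% of the summed FPKM of *HK1* and *HK2*. *GPI*, which turns glucose 6-phosphate into fructose 6-phosphate, had 640 and 609 FPKM (-0.070).

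Phosphofructokinase commits the sugar to glycolysis, and its 3 subunit genes differed in size of change. *PFKL*, named for the liver form, had 164 FPKM with the control virus and 139 FPKM with pLVX-*RBP4*, a difference of -0.23. The platelet form *PFKP* had 206 and 194 FPKM (-0.087), and the muscle form *PFKM* had 26.0 and 25.4 FPKM (-0.031). The share of *PFKL* in the summed phosphofructokinase FPKM was 41.4% with the control virus and 38.9% with pLVX-*RBP4*, and that of *PFKP* was 52.1% and 54.0%. Such shares do not depend on the scaling of the groups. The aldolase *ALDOC* had 133 and 114 FPKM (-0.21), and *TPI1*, which interconverts the triose phosphates, had 1127 and 1104 FPKM (-0.030).

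In the steps from triose phosphate to pyruvate, 5 of 6 genes were lower (4 to 6 over the scalings), with *ENO1* furthest from 0. *ENO1* had 3117 FPKM with the control virus and 2628 FPKM with pLVX-*RBP4*, a ratio of 0.843 and a difference of -0.25, and it stayed below 0 under each scaling (-0.37 to -0.17). *ENO2*, the enolase best known from neurons, had 145 and 129 FPKM (-0.17) and made 4.44% and 4.67% of the summed FPKM of *ENO1* and *ENO2*. *PKM* had 3951 and 3609 FPKM (-0.13). *PGAM1*, the phosphoglycerate mutase, had 813 and 766 FPKM (-0.086). *PGK1*, the phosphoglycerate kinase between *GAPDH* and *PGAM1* in the pathway, was the exception, with 720 FPKM with the control virus and 764 FPKM with pLVX-*RBP4* (0.085). Its sign turned when the highest gene was left out of the common sum (-0.034).

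The 2 measured genes of lactate handling went in opposite directions. *LDHA*, the dehydrogenase subunit that favours lactate formation, had 1115 FPKM with the control virus and 1187 FPKM with pLVX-*RBP4* (0.091). *SLC16A3*, which codes for the lactate exporter MCT4, had 328 and 286 FPKM (-0.20). Per transcript of *LDHA* there were 0.294 of *SLC16A3* with the control virus and 0.241 with pLVX-*RBP4*, by FPKM. The difference of *SLC16A3* kept its sign under each scaling, from -0.32 to -0.12, whereas that of *LDHA* ran from -0.028 to 0.17.

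**Figure D2:**
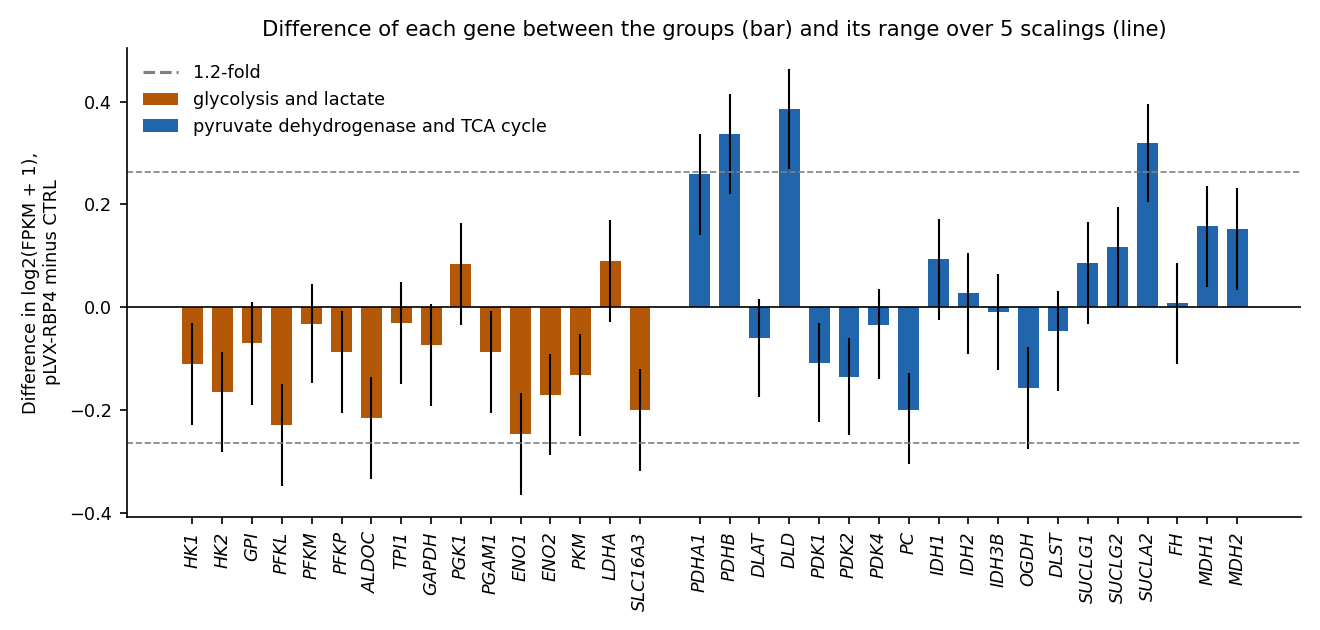
Difference in log2(FPKM + 1), pLVX-RBP4 minus CTRL, of each gene as deposited (bars) and its range over the deposited values and 4 other scalings (vertical lines), with dashed lines at 1.2-fold. DLD, PDHB and SUCLA2 pass the upper dashed line as deposited, and no bar passes the lower one.

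The genes of PDH and the TCA cycle were not shifted as a whole. With pLVX-*RBP4*, 11 of the 19 genes were higher and 8 lower, near the 50.2% and 49.8% of all genes, and the median difference was 0.027. With the highest gene left out of the common sum 6 of the 19 were higher, against 30.04% of all genes, and at a common sum 15 of the 19, against 65.0%. They spread more widely than the glycolysis genes, from -0.20 for *PC* to 0.39 for *DLD*. At least 1.2-fold higher were 3 of the 19, *DLD*, *PDHB* and *SUCLA2*, a size that 11.0% of all genes reached. None was lower by that size. No gene of either side reached 1.5-fold, against 1.49% of all genes upward and 1.28% downward.

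Within PDH the subunits differed from each other. The complex joins a decarboxylating part (*PDHA1* and *PDHB*), a core that carries lipoic acid (*DLAT*) and a dehydrogenase that reoxidizes it (*DLD*). *DLD* had 31.6 FPKM with the control virus and 41.6 FPKM with pLVX-*RBP4*, a ratio of 1.32 and a difference of 0.39, which lay at the 95.4th percentile of all genes. *PDHB* had 42.5 and 54.0 FPKM, a ratio of 1.27 (0.34, 93.5th percentile). *PDHA1* had 57.3 and 68.7 FPKM (0.26, 88.5th percentile), just under the limit of 1.2-fold on the log2(FPKM + 1) scale. These 3 genes were higher under every scaling, with the lowest value at 0.14 for *PDHA1*. The core *DLAT* did not follow them, with 20.9 FPKM with the control virus and 20.0 FPKM with pLVX-*RBP4* (-0.061, or 0.015 at a common sum). *PDHX*, a further gene of the complex picked after its value was seen, had 12.8 and 14.2 FPKM (0.13, above 0 under each scaling). The ratio of *PDHB* to *DLAT* was 2.03 and 2.69, and that of *DLD* to *DLAT* 1.51 and 2.08, in the CTRL and pLVX-*RBP4* groups. *DLD* also serves other complexes, among them that of 2-oxoglutarate dehydrogenase.

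The PDH kinases, which switch the complex off by phosphorylating the product of *PDHA1*, were all lower as deposited. *PDK1* had 28.9 FPKM with the control virus and 26.7 FPKM with pLVX-*RBP4* (-0.11), *PDK2* had 20.3 and 18.4 FPKM (-0.14), and *PDK4* had 7.69 and 7.48 FPKM (-0.034). *PDK4* turned to 0.036 after rescaling to a common sum, while *PDK1* and *PDK2* stayed below 0 under each scaling. Their summed FPKM had a ratio of 0.925, and *PDK1* made 50.8% of it in both groups. By FPKM, *PDHA1* stood at 1.98 per *PDK1* with the control virus and at 2.57 with pLVX-*RBP4*, a pair that was not planned. *PDP1* and *PDPR*, genes of the phosphatase that opposes these kinases, were lower too (both -0.16, given below). *PC*, the carboxylase that feeds pyruvate into oxaloacetate, was weakly expressed, with 8.06 and 6.88 FPKM (-0.20).

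Among the 11 measured enzymes of the TCA cycle and their cytosolic counterparts, 8 were higher and 3 lower, with a median of 0.086, and 3 to 10 were higher over the scalings, against 50.2% of all genes as deposited and 30.04% to 65.0% over the scalings. Succinyl-CoA ligase, which makes a nucleoside triphosphate directly in the cycle, was higher in each of its 3 genes as deposited. *SUCLA2*, the ATP-forming subunit, had 25.1 FPKM with the control virus and 31.5 FPKM with pLVX-*RBP4*, a ratio of 1.26 and a difference of 0.32. *SUCLG2*, the GTP-forming subunit, had 67.5 and 73.3 FPKM (0.12), and the shared subunit *SUCLG1* had 165 and 175 FPKM (0.086). The share of *SUCLA2* in the summed FPKM of *SUCLA2* and *SUCLG2* was 27.1% with the control virus and 30.1% with pLVX-*RBP4*. With the highest gene left out of the common sum, *SUCLG1* was at -0.033 and *SUCLG2* at -0.00019.

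The malate dehydrogenases were both higher under each scaling. *MDH2*, the mitochondrial form, had 106 FPKM with the control virus and 118 FPKM with pLVX-*RBP4* (0.15), and *MDH1*, the cytosolic form of the malate-aspartate shuttle, had 58.3 and 65.1 FPKM (0.16). *MDH2* made 64.6% and 64.5% of their sum. The isocitrate dehydrogenases and fumarase were closer to 0, and each of them changed sign under some scaling. The NADP-dependent forms *IDH1* (cytosol) and *IDH2* (mitochondrion) had 68.2 and 72.8 FPKM (0.093) and 168 and 171 FPKM (0.027), and *IDH3B*, of the NAD-dependent form of the cycle, had 16.4 and 16.2 FPKM (-0.0097). Fumarase (*FH*) had 84.3 and 84.8 FPKM (0.0082). *OGDH*, the decarboxylating subunit of 2-oxoglutarate dehydrogenase, had 139 and 125 FPKM (-0.16, below 0 under each scaling) and the core *DLST* 43.3 and 41.9 FPKM (-0.046, or 0.032 at a common sum). The complex shares *DLD* with PDH.

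A scaling moves all genes of a group by a common factor, so it leaves the contrast between both sides of pyruvate nearly as it is. The median of the PDH and TCA genes lay 0.13 above that of the glycolysis genes. Of the 19 genes, 8 lay above every glycolysis gene, and 14 of the 16 glycolysis genes lay below the median of the 19. These are counts in a single pair of group values, with no spread between libraries behind them.

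The difference between the groups varied with level over all genes. In 10 bins of mean FPKM, the median difference ran from -0.034 in the lowest to 0.080 in the highest, and in the highest bin 33.9% of genes were lower. That bin is wide, from 87.8 to 337956 FPKM with a median level of 170 FPKM, so its genes are not alike in level. Most glycolysis genes lie in it. Of the 14 that do, 12 were lower. Set against the median of its own bin, a step added after seeing the data, the glycolysis list had a median of -0.18 and 14 of 16 genes below 0, with 4 lower by at least 1.2-fold. As deposited, 2.42% of the genes of the highest bin were lower by that size. The share of all genes after this step is not given here, so the count of 4 has no comparison. The PDH and TCA list had a median of 0.0054 and 10 of 19 genes above 0.

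**Figure D3:**
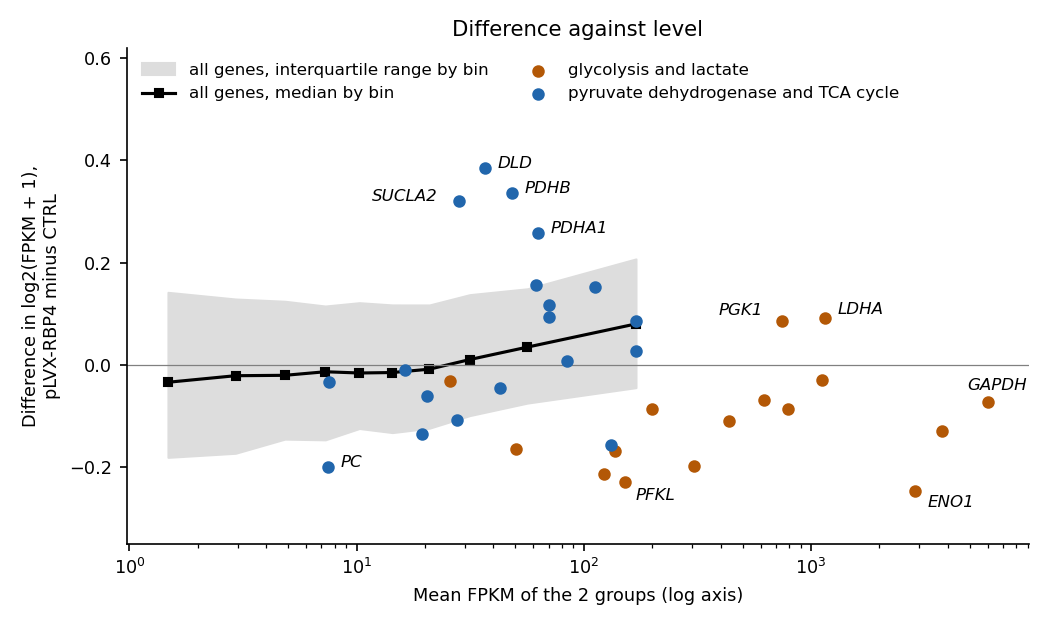
Difference in log2(FPKM + 1) against mean FPKM (log axis) for the 16 genes of glycolysis and lactate and the 19 genes of pyruvate dehydrogenase and the TCA cycle, with the median (squares, at the median level of the bin) and interquartile range (grey) of all 12382 genes in 10 bins of level. The line of medians ends at 0.080 in the highest bin, and 12 of the 14 glycolysis genes in that bin lie below 0.

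Other genes of these pathways were read from lists, and most genes near 0 in them changed sign with the scaling, so the range of each count over the scalings is given in brackets. For all genes, 49.8% were lower (34.95% to 70.0%) and 50.2% higher (30.04% to 65.0%). Beside the 16 genes, 13 further glycolysis genes passed the limit on level, of which 9 were lower (5 to 12) and 4 higher, with a median of -0.058. *PFKFB3*, which makes the activator of phosphofructokinase, had 51.4 FPKM with the control virus and 42.8 FPKM with pLVX-*RBP4* (-0.26). The muscle enolase *ENO3* went the other way, with 39.0 and 51.2 FPKM (0.39), unlike *ENO1* and *ENO2*. Of the pentose phosphate pathway, 3 of 5 genes were lower (2 to 5), among them the transketolase *TKT* with 578 and 522 FPKM (-0.15) and the dehydrogenase *PGD* with 380 and 349 FPKM (-0.12). Gluconeogenesis was represented by *PCK2* (78.8 and 78.9 FPKM, 0.00089) and *G6PC3* (73.6 and 69.2 FPKM, -0.088).

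Of 14 further pyruvate and TCA genes, 9 were higher (6 to 12) and 5 lower, with a median of 0.043. *LIAS*, which makes the lipoic acid of PDH and 2-oxoglutarate dehydrogenase, had 4.44 FPKM with the control virus and 6.77 FPKM with pLVX-*RBP4*, a ratio of 1.52 and a difference of 0.51. *MPC2*, a subunit of the carrier that brings pyruvate into the mitochondrion, had 30.6 and 37.5 FPKM (0.29). All 4 genes of succinate dehydrogenase were higher (3 to 4), from 0.067 for *SDHA* to 0.23 for *SDHB*, a group singled out after its values were seen. The kinase *PDK3*, also picked after its value was seen, had 20.6 and 19.5 FPKM (-0.075, or 0.0011 at a common sum). *PDP1* and *PDPR*, genes of the phosphatase that opposes the PDH kinases, were lower too and were chosen with their values known. *PDP1* had 5.59 and 4.89 FPKM (-0.16) and *PDPR* had 14.5 and 12.9 FPKM (-0.16), both below 0 under each scaling. Of 11 genes of the malate-aspartate shuttle and related steps, 5 were higher (5 to 9) and 6 lower, and the furthest from 0 were the malic enzyme *ME2* (16.2 and 20.3 FPKM, 0.31) and the aspartate-glutamate carrier *SLC25A12* (20.0 and 22.6 FPKM, 0.17).

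Many glycolysis genes are known targets of the hypoxia-inducible factor. Of 13 genes of the hypoxia response, 9 were lower (6 to 13) and 4 higher, with a median of -0.065, against 49.8% of all genes lower (34.95% to 70.0%). *HIF1A*, which codes for the oxygen-regulated subunit of the factor and was picked after its value was seen, had 203 and 210 FPKM (0.050). *ARNT*, the partner of the factor, had 27.3 FPKM with the control virus and 21.7 FPKM with pLVX-*RBP4* (-0.32), and *VEGFA*, a well-known target, had 398 and 363 FPKM (-0.13). Beside *HIF1A*, the higher genes of the list were *ADM* (0.085), *BNIP3L* (0.082) and *ANKRD37* (0.090). The list mixes genes of the factor itself with targets. Whether the factor has a part in the differences of the glycolysis genes was not tested.

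**Figure D4:**
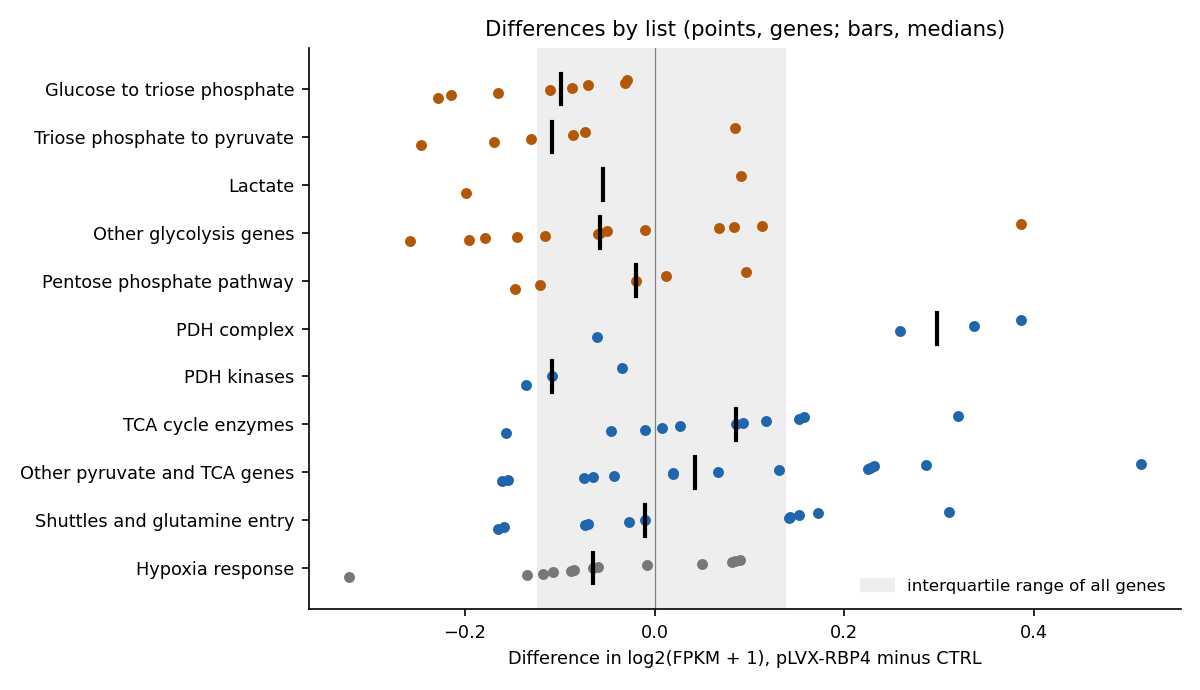
Difference in log2(FPKM + 1), pLVX-RBP4 minus CTRL, of the genes of each list with a mean FPKM of at least 1 (points), the median of the list (black bars) and the interquartile range of all 12382 genes (grey). The PDH complex, here PDHA1, PDHB, DLAT and DLD, has the highest median, 0.30, with DLAT apart at -0.061. PDHX (0.13) is drawn with the other pyruvate and TCA genes. All 8 genes from glucose to triose phosphate lie left of 0.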

How the data were processed

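RNA-seq libraries of 3 pLVX-*RBP4* and 3 CTRL cultures were sequenced as paired-end reads. According to the paper, TopHat2 placed the reads on Sscrofa10.2 and Cuffdiff of Cufflinks compared the groups. Versions and the annotation release are not given in the sources used here. The deposited values are FPKM computed by the authors, with 1 value per gene and group, so depth, replicate spread and tests could not be had from them. The paper's sequencing statistics list more mapped reads, and a higher mapped share, for each pLVX-*RBP4* library than for any CTRL library. Depth therefore goes with the group. Both value columns were used. At the low end (mean FPKM below 0.1, neither value at 0; 865 genes), pLVX-*RBP4* divided by CTRL most often gave 0.7 to 0.8 (123 genes). Whether the unequal depth bears on this or on the differences above was not tested.

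Symbols came from a table of Ensembl gene names (10489 of 17950 genes). Members and lists were chosen with earlier results of these data known. All members were named, and of each other pathway list the 2 genes furthest from 0 among those whose mean FPKM reached 1. Markers and other genes named singly were picked after their values were seen. Ratios between different genes were not planned. Some listed genes are not reported here. Differences used a pseudocount of 1. The calculation was tested on simulated data. The alternatives were pseudocounts of 0.1 and 0.01, 4 scalings (common median, upper quartile, sum, and sum without the highest gene, which held 35.4% and 25.8% of the summed FPKM), no filter, a mean FPKM of at least 5, and the mean of a list. Python 3.11.15, numpy 2.4.6 and pandas 2.3.3 were used.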

Additional observations from a re-analysis of the deposited data

How the results depend on the processing

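The scaling of the groups was the choice that changed most. Rescaling to a common sum left 6 glycolysis genes higher and 4 PDH and TCA genes lower. With the highest gene left out of the sum, the median of all genes moved to -0.11, and 70.0% of all genes were lower. The glycolysis median was then -0.22, with 0 genes higher and 6 lower by 1.2-fold, and the PDH and TCA median was -0.092, with 6 genes higher, 13 lower, 1 higher by 1.2-fold and 2 lower by 1.2-fold. After upper quartile scaling, 2 glycolysis genes were lower by 1.2-fold and the PDH and TCA median was -0.011. The median of all genes was then -0.033, with 56.6% lower. Set against the median of the same bin of level, a choice made after seeing the data, 4 glycolysis genes were lower by 1.2-fold. The share of all genes past 1.2-fold under these alternatives is not given here. The counts past 1.2-fold in this paragraph therefore have no comparison and are not a result about these genes. Pseudocounts, filters on level and the mean of a list moved no median by 0.1 and no count by more than 1.5 times. Of the 35 genes, 20 kept their sign under all 9 alternatives for single genes, 10 on each side. Values at 0.1 or more from the deposited one came from leaving out the highest gene, in all 35 genes.

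No paired analysis was possible because the table holds 1 value per group, and for the same reason no replicate was left out. A correction for the length of the protein was planned and not run, since no lengths were at hand. The variation between cultures is not known from these values.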

Other observations

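The other monocarboxylate carriers of the SLC16 family, a set picked after the data were seen, were scarce next to *SLC16A3*. The next highest, *SLC16A5*, had 9.00 FPKM with the control virus and 8.74 FPKM with pLVX-*RBP4*, and *SLC16A13* had 3.61 and 3.79 FPKM. *SLC16A7*, which codes for MCT2, a carrier with high affinity for pyruvate, had 0.223 and 0.332 FPKM. *SLC16A1* was not found by symbol, so the sum of lactate carriers in these cells is not known from these values.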
